A study of Mus musculus with 9 samples.

Results

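The translation initiation and elongation factors described here were the protein-coding mouse genes whose symbols begin with Eif or Eef, leaving out Eif2s3x, Eif2s3y and names that carry "-ps". The rule used names only and no measured value, but the gene group was chosen with earlier results of these data known. It found 66 genes among the 47643 in the deposited count tables, 53 of them Eif and 13 Eef. Of the 66, 63 passed the filter of at least 100 reads over all libraries and were tested. The other 3 were Eef1a2, a muscle and neuron form of the elongation factor eEF1A, with 31 reads in all, and Eif4e1b, an oocyte cap binder, and Eif4ebp3, an inhibitor of cap binding, both with 0 reads.

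The RNA came from sorted mouse pancreatic ductal adenocarcinoma (PDAC) cells. The 6 KPF libraries were GFP+ tumour cells with Yap, and the 3 KPYYF libraries were Tm+ tumour cells in which Yap was to be deleted. Mice of both groups carried Trp53 frt/+, Pdx-Flp and R26 FSF-CreER/Dual, so Flp under a pancreatic promoter removed a Trp53 allele and turned on GFP together with CreER. KPYYF mice also carried Yap flox/flox. Both groups were fed a tamoxifen (TAM) diet once tumours could be felt, which lets CreER delete floxed Yap and swap GFP for tdTomato (Tm). The KPF control cells were therefore cells that had kept GFP on that diet. All mice used, those of other experiments included, were 5 to 35 weeks old and of both sexes, with no age given for each library. Genotype, Yap status and reporter colour changed together and cannot be told apart. The KPYYF cells came from nodules that had regrown after Yap loss, so acute loss of Yap was not measured. Libraries are called by their mouse number, and 4504h and 4504s share 1, so the 6 KPF libraries stand for 5 mice.

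Making a protein begins when the small ribosomal subunit, carrying eIF1, eIF1A, eIF3 and the eIF2-initiator tRNA complex, lands on an mRNA whose 5′ cap is held by eIF4F. eIF4F consists of the cap binder eIF4E, the scaffold eIF4G and the RNA helicase eIF4A. After the start codon is found, eIF5B joins the large subunit, eEF1A brings each further tRNA and eEF2 moves the ribosome along. The pathway is throttled at well known points. Stress kinases phosphorylate eIF2 and so block its exchange factor eIF2B, and the 4E-BP proteins hold eIF4E away from eIF4G until mTOR phosphorylates them. In pancreatic cancer the pathway is known as an output of mTOR and Myc signalling. The measurements here are mRNA levels and say nothing of the proteins' amounts or phosphorylation.

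Each library had 8116539 to 9635514 reads on genes. The deleted gene followed the labels. Yap1 stood at 41.7 to 150.5 CPM, counts scaled to library size, in the KPF libraries and at 0.71, 2.83 and 7.10 CPM in the KPYYF libraries 4449, 4891 and 4938 (adjusted p = 0.0159, edgeR), although a 3′ tag need not lie in the deleted exons. The 12 epithelial PDAC markers summed to 3621 to 12340 CPM in KPF and 659.3 to 2235 CPM in KPYYF, and 7 of them had an unadjusted p under 0.05, all lower, 3 of them also at an adjusted p under 0.05 (edgeR). The epithelial label was thus weak in the cells labelled KPYYF. Leukocyte markers were highest in the KPF libraries 4601 (8605 CPM) and 4504s (2516 CPM) against 424.9 to 753.9 CPM in KPYYF, and the B and T cell markers Cd79a and Cd3e stayed under the filter. Acinar markers were highest in 4504s (19870 CPM) and 4449 (5893 CPM). Fibroblast markers overlapped between groups in their sum, at 418 to 5621 CPM in KPF and 1245 to 3444 CPM in KPYYF, but 2 of the 10 had an unadjusted p under 0.05, both higher, Pdgfra and Thy1. Pdgfra was 4.37 to 41.9 CPM in KPF and 24.3 to 283.7 CPM in KPYYF (log2 fold change 2.90, edgeR adjusted p = 0.105). Thy1 did not overlap, at 1.46 to 57.6 CPM in KPF and 65.0 to 266.1 CPM in KPYYF (log2 fold change 1.92, edgeR adjusted p = 0.251). Of the other fibroblast markers, Col1a1, Col1a2, Pdpn and Fap had log2 fold changes below 0 (-1.46, -1.71, -0.55 and -1.62). Col3a1, Dcn, Lum and Pdgfrb were above 0 (0.24, 0.52, 1.6 and 0.84). None of these other markers had an unadjusted p under 0.05 (edgeR). The part of the fibroblast markers in the members' values was not tested. Of 5 Schwann cell markers S100b alone passed the filter, at 15.7 to 90.6 CPM in KPF and 0.545 to 7.34 CPM in KPYYF. Endothelial markers summed to at most 66.2 CPM and islet markers to at most 86.7 CPM in any library. Xist reads numbered 3452 to 16108 in KPYYF but only 71 to 159 in 3 of the KPF libraries. Fits of the 6 libraries with at least 1000 Xist reads, and without 4504s, 4601 and 4449, are given below. Beyond those fits the part of these differences in the results was not tested. In bulk RNA fewer cells of a type and less RNA per cell cannot be told apart.

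As a group, the translation factors lay slightly higher in KPYYF than in KPF cells, and the fitted differences were small. This held in libraries 4891 and 4938, where 45 and 48 of the 63 tested genes were above their KPF mean. In 4449 it was 33, inside the 27 to 39 of the KPF libraries. The log2 fold change was above 0 for 50 of the 63 tested genes (79.4%), against 46.7% of all 14105 genes tested. Its median was 0.25, against -0.07 for all genes. Among the 12303 genes with a mean of at least 2.80 CPM, the lowest of any tested member, 47.9% were above 0 and the median was -0.04. For 42 of the 63 (66.7%) the difference was under 0.5 on the log2 scale in either direction, whereas 43.5% of all genes were that close to 0. Expression level was not matched in that last comparison, and all genes include many with few reads. No member passed an adjusted p of 0.05 in either direction by the edgeR quasi-likelihood test, where 0.305% of all genes were called higher and 0.794% lower. At an unadjusted p under 0.05 there were 7 higher, Eif1ad, Eif1ax, Eif2b1, Eif3j1, Eif4a1, Eif4e and Eif5a, and 1 lower, Eif4e3. That is 11.1% and 1.59% of the members, beside 6.10% and 10.0% of all genes. DESeq2, applied as an alternative, called Eif1ad, Eif2b1 and Eif5a higher and Eif4e3 lower at an adjusted p under 0.05 (1.91% and 6.58% of all genes), and limma-voom called none in either direction (0.312% and 0.276% of all genes). The rule the study used with DESeq2, an unadjusted p under 0.05 and more than 2-fold, was applied here to the edgeR fit. By it Eif2b1 and Eif3j1 were higher and Eif4e3 lower (4.20% and 9.20% of all genes). The CPM values of the groups did not overlap for 6 members, all of them higher in KPYYF, beside 3.92% of all genes. No member had KPYYF values all below KPF, beside 5.18% of all genes.

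The proliferation genes lay higher as well. Of 13 such genes, in a list chosen with earlier results known, 12 had log2 fold changes above 0. At an unadjusted p under 0.05 there were 6, all higher, and none of them passed an adjusted p of 0.05 (edgeR). Of all genes tested, 46.7% were above 0 and 6.10% were higher at that unadjusted p. Mki67, the Ki-67 antigen gene, read 17.4 to 44.3 CPM in KPF and 53.8, 73.5 and 65.1 CPM in 4449, 4891 and 4938. The share of proliferation in the translation factor differences was not tested.

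**Figure D1:**
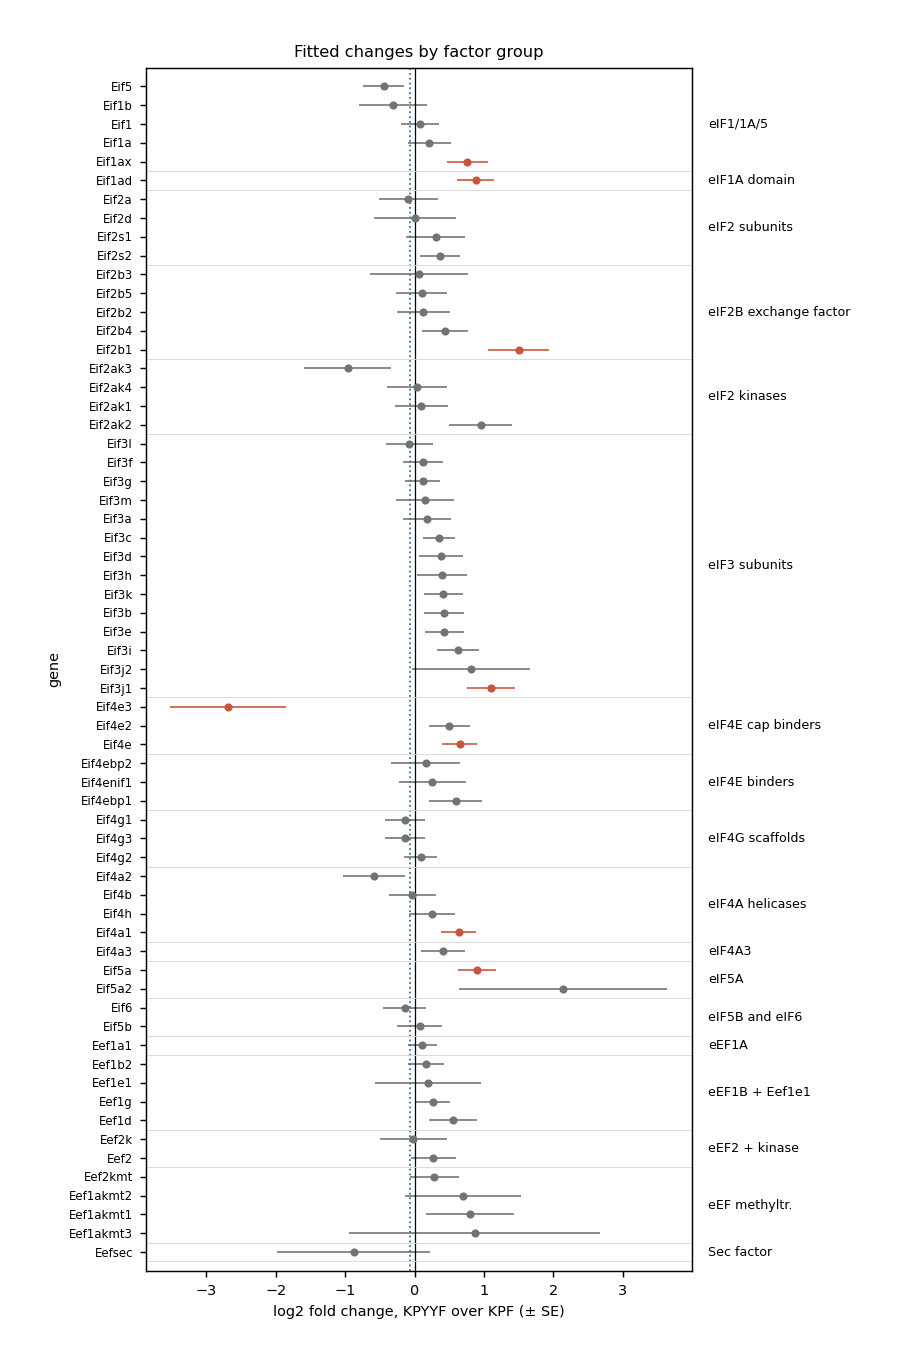
Fitted log2 fold change of each of the 63 tested genes, KPYYF over KPF (x axis, ± SE), grouped by role; red marks an unadjusted p under 0.05 and the dotted line the median of all genes tested (-0.07). Most points lie a little right of 0, with Eif4e3 far to the left at -2.69.

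The 8 genes past the unadjusted threshold are given first by library, with their positions on GRCm38 from GENCODE M21. Eif5a (chr11:69916714-69921958, minus strand) encodes the hypusinated factor eIF5A, which helps ribosomes through difficult stretches such as runs of proline. It read 222.4, 390.9, 504.3, 368.4, 304.4 and 265.3 CPM in KPF libraries 4269, 4435, 4504h, 4504s, 4515 and 4601 and 617.1, 633.9 and 670.1 CPM in KPYYF libraries 4449, 4891 and 4938. All KPYYF values exceeded all KPF values, and the 3 KPYYF libraries lay closer together than the KPF libraries did. The means were 342.6 ± 101.0 (SD, n = 6) and 640.4 ± 27.1 CPM (SD, n = 3), a 1.87-fold difference (log2 fold change 0.90, SE 0.27, adjusted p = 0.123, edgeR).

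Eif2b1 (chr5:124570213-124579131, minus strand) encodes the alpha subunit of eIF2B, one of the subunits with which the exchange factor senses phosphorylated eIF2. Its levels were 8.63, 12.4, 8.26, 10.7, 7.17 and 10.8 CPM in the KPF libraries, in the same order, and 22.7, 35.5 and 23.6 CPM in the KPYYF libraries. The groups did not overlap and the lowest KPYYF value lay well above the highest KPF value. The log2 fold change was 1.50 (SE 0.43, adjusted p = 0.116, edgeR), the largest positive value among members whose unadjusted p was under 0.05. The read depth behind it was low in KPF, where the mean was 9.64 ± 1.94 CPM (SD, n = 6).

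Eif3j1 (chr2:122028546-122056598, plus strand) encodes eIF3j, a loosely bound subunit that sits near the mRNA entry channel. Its CPM was 30.8, 66.7, 23.8, 36.1, 33.1 and 45.1 in KPF and 69.99, 81.9 and 100.6 in KPYYF. Library 4435 came within a few CPM of the lowest KPYYF library, yet the groups did not overlap. The fitted difference was 1.10 on the log2 scale (SE 0.35, adjusted p = 0.139, edgeR). Its near-identical partner Eif3j2 was erratic, at 2.55 to 59.5 CPM in KPF and 134.9, 40.6 and 6.67 CPM in KPYYF, and how reads were divided between the copies is uncertain because reads that aligned to more than 1 place were not counted. Library 4435 was the highest KPF library for Eif3j1 and the lowest for Eif3j2, and 4938 was the highest KPYYF library for Eif3j1 and the lowest for Eif3j2.

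Eif1ad (chr19:5366741-5371526, plus strand), named for an eIF1A-like domain, measured 48.0 to 87.9 CPM in KPF (median 66.9) and 113.8, 116.2 and 133.6 CPM in KPYYF, without overlap. The difference was 0.88 on the log2 scale (SE 0.27, adjusted p = 0.134, edgeR). Eif1ax (chrX:159372178-159389928, plus strand), the X-linked eIF1A gene, had 80.1, 172.2, 110.1, 96.8, 90.1 and 107.1 CPM in KPF and 208.1, 132.2 and 215.6 CPM in KPYYF. Here the groups overlapped, since 4435 lay above 4891. Its log2 fold change of 0.76 (SE 0.29, adjusted p = 0.219, edgeR) had an unadjusted p of 0.13 among the 6 libraries with at least 1000 Xist reads.

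Eif4e (chr3:138526179-138559696, plus strand), the cap binder itself, was the steadiest of these genes in KPF, with 85.9, 80.4, 91.2, 77.6, 87.9 and 91.6 CPM. The KPYYF libraries 4449, 4891 and 4938 had 99.8, 173.3 and 130.8 CPM. All 3 were above every KPF library, but 4449 only by a small margin. The log2 fold change was 0.65 (SE 0.25, adjusted p = 0.22, edgeR). Without library 4891 the unadjusted p rose to 0.155. Eif4a1 (chr11:69666936-69672423, minus strand), the main helicase of eIF4F, read 172.4, 126.6, 171.0, 169.6, 195.6 and 150.9 CPM in KPF and 321.3, 238.8 and 205.4 CPM in KPYYF. In value, the order of the KPYYF libraries was the reverse of that for Eif5a, with 4449 the highest. Its log2 fold change was 0.63 (SE 0.25, adjusted p = 0.219, edgeR), and without 4449 the unadjusted p was 0.128.

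Eif4e3 (chr6:99625135-99666771, minus strand), a cap binder that grips the cap without the usual pair of aromatic residues, was the gene with lower values. It had 24.5, 11.6, 10.8, 20.8, 3.64 and 44.0 CPM in KPF and 4.97, 1.31 and 2.62 CPM in KPYYF. KPF library 4515 fell inside the KPYYF range, so the groups overlapped. The highest KPF value was in 4601, the library with the highest leukocyte marker sum. The next highest was in 4269, whose leukocyte marker sum was 624.9 CPM, and it exceeded that in 4504s, whose sum was 2516 CPM. The log2 fold change was -2.69 (SE 0.83, adjusted p = 0.132, edgeR), a fitted ratio of 0.155 of the KPF level. It shares a strand and position with the annotated gene Gm20696, so its reads may be split. A fit without 4504s, 4601 and 4449 together was chosen after seeing the marker sums. In it the log2 fold change of Eif4e3 was -2.635 (unadjusted p = 0.0303, adjusted p = 0.239, edgeR). There 9.99% of all genes were lower at an unadjusted p under 0.05. That fit also drops 4449, the only KPYYF library with more Eif4e3 than KPF library 4515. The part of leukocytes in the Eif4e3 values was not tested.

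**Figure D2:**
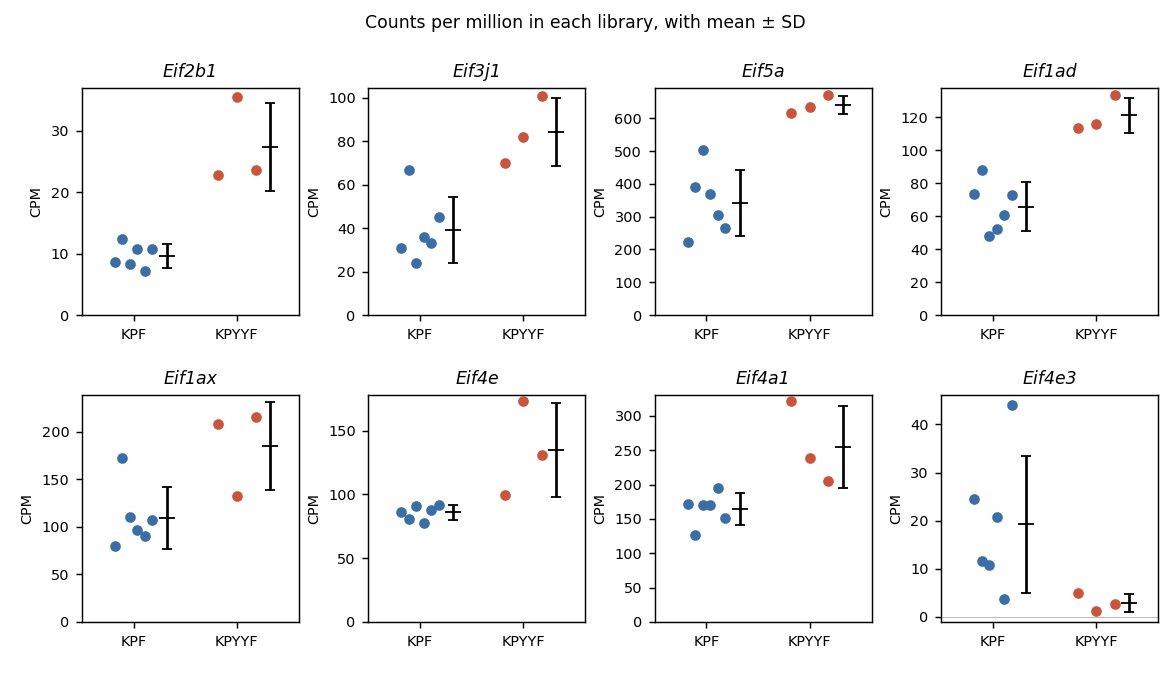
CPM in each library (y axis, from 0) of the 8 genes with an unadjusted p under 0.05; blue points are the 6 KPF and red the 3 KPYYF libraries, in library order, with black bars for mean ± SD. KPYYF points lie above all KPF points in Eif2b1, Eif3j1, Eif5a, Eif1ad, Eif4e and Eif4a1, and overlap them in Eif1ax and Eif4e3.

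Because Myc and its partner Max bind the letters CACGTG, a palindrome that reads alike on both strands, the promoters were searched for it. RefSeq promoter windows (GRCm38.p6) were found for 50 of the 66 genes. In the 250 bases before the start, 11 of these 50 (22.0%) had at least 1 match in any of their windows, against 6.86% of all 27025 genes in the table and 7.61% of its 17492 protein-coding genes. The 11 were Eef2, Eef2k, Eif1b, Eif3f, Eif3k, Eif4a1, Eif4e, Eif4g1, Eif4h, Eif5a and Eif5a2. The comparison genes were not matched to the members for expression or base composition, so the shares are not like for like. A match in this window is a description of letters and not a bound site. The stretches around the matches in the 3 genes of the group above are shown first, because these genes carry both the match and an unadjusted p under 0.05; capitals mark CACGTG, all are written 5′ to 3′ on the strand of the gene, and each is 30 bases long. Eif4e has a pair of matches, at chr3:138527028-138527057 and chr3:138527192-138527221 (plus strand), the second beginning 64 bases before the start. The Eif4a1 stretch is chr11:69672595-69672624 (minus strand), and the Eif5a stretches, from different starts of that gene, are chr11:69921443-69921472 and chr11:69920791-69920820 (minus strand). The window of Eif4a1 overlaps no exon of GENCODE M21. That of the upstream Eif5a start lies inside the annotated gene and overlaps no exon either. Those of Eif4e and of the downstream Eif5a start overlap annotated exons, and the transcripts these belong to were not recorded.
Eif4e, far: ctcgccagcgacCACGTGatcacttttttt
Eif4e, near: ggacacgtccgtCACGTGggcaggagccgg
Eif4a1: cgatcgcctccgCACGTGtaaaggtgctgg
Eif5a, upstream start: aaggggcggggtCACGTGtgtgcgtcatcc
Eif5a, downstream start: gcgctgcgcggcCACGTGaggtgggggagg

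Genes with the same letters had fitted values of either sign. The scaffold gene Eif4g1 (chr16:20672661-20672690, plus strand) and the elongation factor gene Eef2 (chr10:81176576-81176605, plus strand) are shown for contrast, since both hold CACGTG close to the start and neither had an unadjusted p under 0.05.
Eif4g1: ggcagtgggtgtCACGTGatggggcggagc
Eef2: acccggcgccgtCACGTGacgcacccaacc

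Of the 11 genes with a match, 8 had a log2 fold change above 0 and 3 had an unadjusted p under 0.05 and were higher, with a median of 0.27. Of the 38 tested genes whose windows held none, 30 were above 0 and 4 had an unadjusted p under 0.05 and were higher, with a median of 0.16. Of all genes tested, 46.7% were above 0 and 6.10% were higher at an unadjusted p under 0.05 (edgeR). Whether the match and the difference go together was not tested. Myc itself read 8.58 to 25.4 CPM in KPF and 87.5, 36.0 and 52.0 CPM in 4449, 4891 and 4938 (log2 fold change 1.84, SE 0.44, adjusted p = 0.0631, edgeR), without overlap. Max, its binding partner, read 84.6 to 151.3 CPM and 163.4, 163.6 and 222.2 CPM, also without overlap (log2 fold change 0.71, adjusted p = 0.193, edgeR). Mycn was near the floor in KPYYF, where 3 reads are worth 0.327 to 0.355 CPM and its values were 0.109 to 0.327 CPM, against 1.63 to 3.64 CPM in KPF. Library 4449 had the highest Myc and Eif4a1 values of the KPYYF libraries but the lowest Eif4e value.

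The remaining factors are taken in the order in which a ribosome meets them. Among the scanning factors, Eif5, the GTPase activator that releases eIF2 at the start codon, was the lowest, with 461.0 ± 135.2 CPM in KPF (SD, n = 6) and 338.8 ± 76.9 CPM in KPYYF (SD, n = 3; log2 fold change -0.44, adjusted p = 0.512, edgeR). Eif1, which guards start codon choice, averaged 527.7 CPM in KPF and 555.6 CPM in KPYYF but ranged from 353.2 CPM in 4449 to 803.7 CPM in 4891. The autosomal eIF1A gene Eif1a read 99.4 to 228.0 CPM and 154.3 to 226.1 CPM, within the KPF range in all KPYYF libraries.

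The eIF2 complex that delivers the initiator tRNA gave no member past an unadjusted p of 0.05. Eif2s2, its beta subunit, was the highest in fold change, at 261.6 to 431.9 CPM in KPF and 263.7, 486.2 and 584.4 CPM in KPYYF (log2 fold change 0.37, adjusted p = 0.592, edgeR). Eif2a, an alternative carrier of the initiator tRNA, was the lowest, at -0.09. In eIF2B, all 5 subunits had log2 fold changes above 0, but Eif2b1 stood alone, since Eif2b2, Eif2b3, Eif2b4 and Eif2b5 lay between 0.06 (Eif2b3) and 0.44 (Eif2b4). Eif2b3 was almost missing from 1 library, at 1.30 CPM in 4449 beside 50.9 and 36.3 CPM in 4891 and 4938 and 22.3 to 39.5 CPM in KPF.

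The 4 eIF2 kinases split. Eif2ak2 (PKR, the sensor of double-stranded RNA) read 7.05 to 24.8 CPM in KPF and 36.0, 21.9 and 27.98 CPM in KPYYF (log2 fold change 0.96, unadjusted p = 0.0547, adjusted p = 0.323, edgeR). Eif2ak3 (PERK, the kinase of the endoplasmic reticulum) read 11.4 to 52.2 CPM and 19.4, 15.3 and 4.59 CPM (log2 fold change -0.96, adjusted p = 0.496, edgeR). Both genes overlapped between groups. Eif2ak1 (HRI, the heme-regulated kinase) and Eif2ak4 (GCN2, the amino acid sensor) had log2 fold changes of 0.10 and 0.04.

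The eIF3 complex bridges the small subunit and eIF4G. Of its 14 genes, 13 had log2 fold changes above 0, with a median of 0.39, and Eif3l alone lay below, at -0.08. Eif3j1 was the only one with an unadjusted p under 0.05. Eif3i, a core subunit, was next in p at 125.9 to 211.2 CPM in KPF and 133.9, 348.8 and 257.9 CPM in KPYYF (log2 fold change 0.63, unadjusted p = 0.0589, adjusted p = 0.335, edgeR). The library 4449 lay inside the KPF range and the other KPYYF libraries above it. Summed over the 14 genes, eIF3 reached 2645 to 3612 CPM in KPF and 2970, 4406 and 4090 CPM in 4449, 4891 and 4938.

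Among the other cap-complex genes, Eif4e2, a cap binder that represses translation with GIGYF2, read 72.4 to 152.4 CPM in KPF and 140.1, 153.4 and 170.5 CPM in KPYYF (log2 fold change 0.50, adjusted p = 0.433, edgeR). Relative to Eif4e in the same library, Eif4e3 amounted to a count ratio of 0.0415 to 0.481 in KPF and 0.0498, 0.00755 and 0.0201 in 4449, 4891 and 4938. These ratios compare reads of 1 gene with another in the same library and are not molar. Eif4a2, the second eIF4A helicase, gave 43.9 to 122.0 CPM in KPF and 80.2, 17.8 and 59.8 CPM in KPYYF (log2 fold change -0.59, adjusted p = 0.574, edgeR). Its ratio to Eif4a1 was 0.291 to 0.708 in KPF and 0.249, 0.0744 and 0.291 in KPYYF, the last just above the lowest KPF library. Eif4a1 and Eif4a2 therefore had fitted values of opposite sign. The scaffolds had small fitted values, with log2 fold changes of -0.14 for Eif4g1, 0.09 for Eif4g2, which drives cap-independent initiation, and -0.13 for Eif4g3. Eif4a3, a helicase of the exon junction complex rather than of eIF4F, was at 0.41.

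The tested 4E-BP inhibitors had fitted values above 0. Eif4ebp1 (4E-BP1) read 82.9, 147.5, 91.9, 49.5, 61.6 and 51.3 CPM in KPF and 75.4, 162.3 and 128.3 CPM in KPYYF (log2 fold change 0.59, adjusted p = 0.483, edgeR). The groups overlapped, and the ratio of Eif4e to Eif4ebp1 reads was 0.545 to 1.79 in KPF and 1.32, 1.07 and 1.02 in KPYYF, within the KPF range. Eif4ebp2 had a log2 fold change of 0.16.

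**Figure D3:**
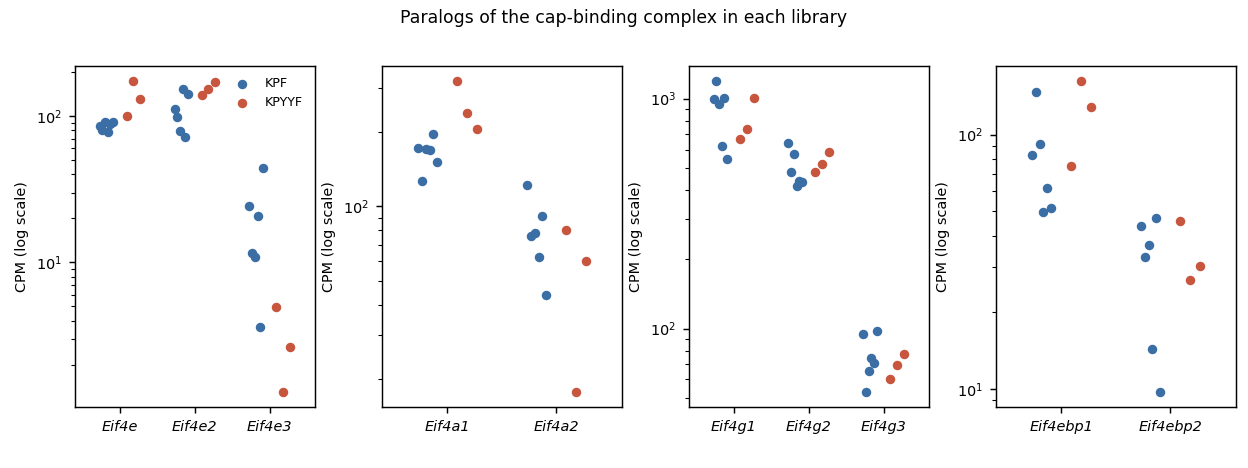
CPM in each library (y axis, log scale) of the paralogs of eIF4E, eIF4A, eIF4G and 4E-BP; blue points are the 6 KPF and red the 3 KPYYF libraries. Eif4e and Eif4a1 are above all KPF libraries in KPYYF, Eif4e3 runs down to 1.31 CPM, and the Eif4g and Eif4ebp genes overlap.

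Later in the cycle, Eif5a2, the second eIF5A gene, had the largest log2 fold change of all members, 2.14, but with an SE of 1.50 (adjusted p = 0.53, edgeR). Its values were 0 to 3.20 CPM in KPF and 10.54, 5.67 and 1.20 CPM in KPYYF. Eif5b, which joins the large subunit, and Eif6, which keeps it apart until it is mature, were at 0.07 and -0.14.

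None of the 12 tested Eef genes had an unadjusted p under 0.05, and 10 had log2 fold changes above 0, with a median of 0.27. Eef1a1, which supplies aminoacyl-tRNA to the ribosome, was the most even gene, at 436.9 to 509.0 CPM in KPF and 553.0, 500.3 and 510.4 CPM in KPYYF (log2 fold change 0.11, adjusted p = 0.855, edgeR). This gene has many processed copies in the genome, and reads that fit several places were not counted, so its true level is uncertain. In the exchange factor eEF1B, Eef1d was the highest, at 223.5 to 408.9 CPM and 201.6, 678.3 and 469.8 CPM (log2 fold change 0.56, adjusted p = 0.472, edgeR), and Eef1b2 the lowest, at 0.16. Eef2, which translocates the ribosome, read 1468, 1137, 1475, 2213, 2480 and 2409 CPM in KPF and 1386, 3090 and 2279 CPM in KPYYF (log2 fold change 0.27, adjusted p = 0.741, edgeR). The KPF libraries differed from one another as much as the groups did. Eef2k, the kinase that inhibits eEF2, was at -0.02.

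The methyltransferases that modify eEF1A and eEF2 had KPF means from 2.37 CPM (Eef1akmt3) to 32.8 CPM (Eef2kmt), and all 4 had their highest KPYYF value in 4449. Eef1akmt1 read 53.3 CPM in 4449 and 10.1 and 9.62 CPM in 4891 and 4938, against 7.17 to 28.2 CPM in KPF (log2 fold change 0.80, turning to -0.50 without 4449). Eef1akmt3 had 13.0 CPM in 4449 and 0 in the other KPYYF libraries, and Eef2kmt 61.6 CPM in 4449 beside 28.5 and 29.9 CPM. Eefsec, which inserts selenocysteine, had 3.34 to 17.5 CPM in KPF and 0, 8.62 and 6.89 CPM in KPYYF (log2 fold change -0.88, adjusted p = 0.765, edgeR).

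**Figure D4:**
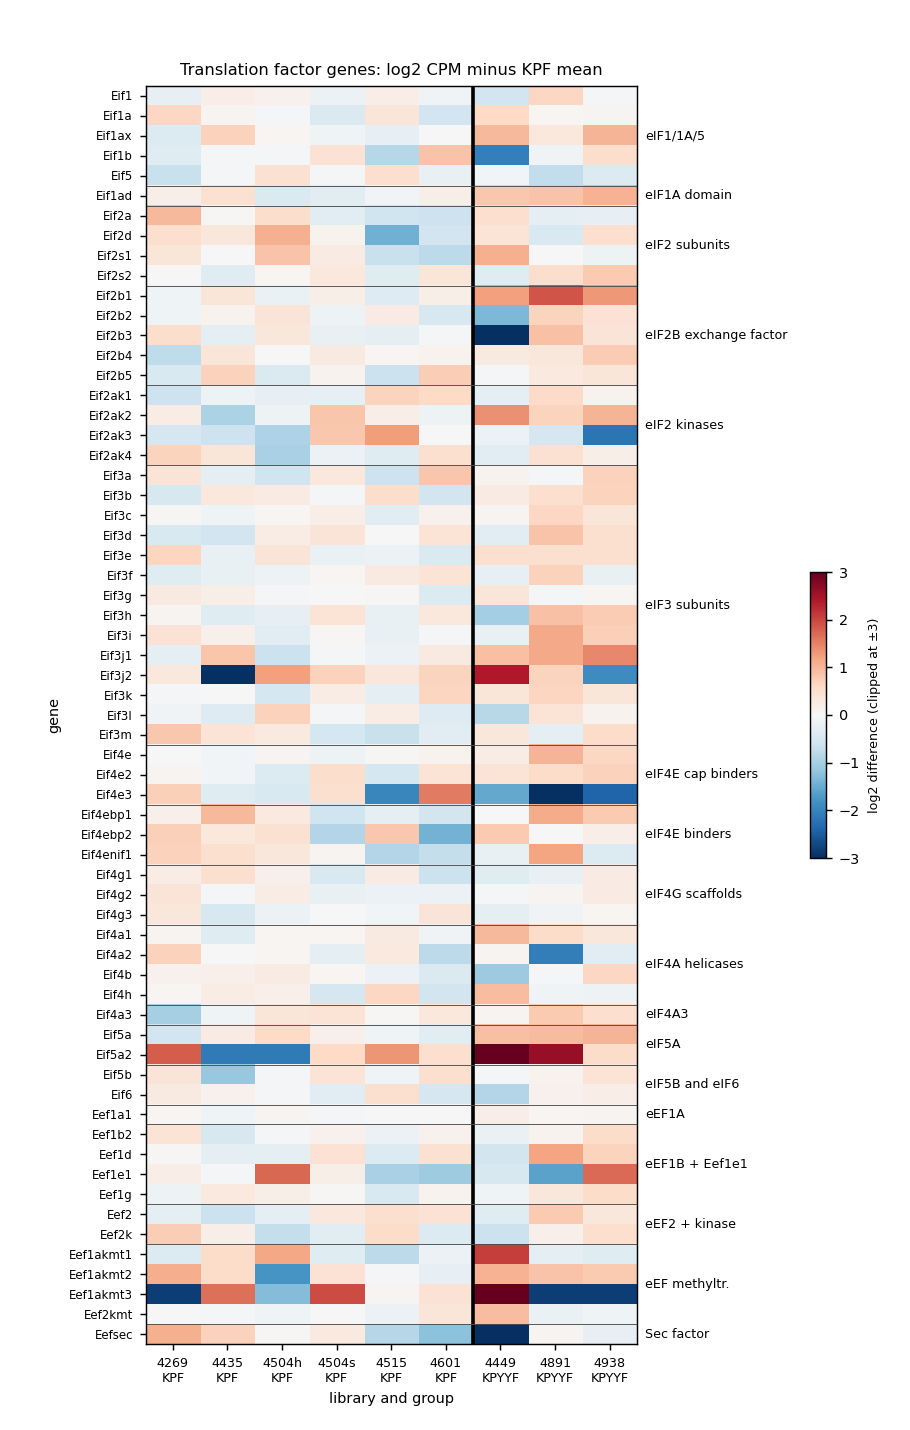
Log2 CPM of each tested gene minus its mean over the 6 KPF libraries (colour, clipped at 3 in either direction), with libraries as columns and genes as rows grouped by role. Libraries 4891 and 4938 are mostly red in the eIF3 rows, while 4449 is mixed and stands apart in Eif2b3, Eif3j2, the methyltransferases and Eefsec.

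The KPYYF libraries were not alike in this gene group. In 4891 and 4938, 45 and 48 of the 63 genes were above their KPF mean, with medians of 0.35 and 0.40 on the log2 scale, whereas in 4449 it was 33 genes and a median of 0.08. Over all genes tested, 47.2% were above the KPF mean in 4449, 48.7% in 4891 and 48.6% in 4938. Among the KPF libraries, between 27 (4515) and 39 (4269) of the 63 were above the mean. Library 4449 was the lowest of the 3 KPYYF libraries for 37 genes and the highest for 19, and it held the higher acinar and epithelial marker sums. Summed over all 66 genes the level was 12050 to 14140 CPM in KPF and 12510, 17420 and 17180 CPM in 4449, 4891 and 4938. Without 4449 the members with an unadjusted p under 0.05 became 9 higher, adding Eef1d, Eif2s2, Eif3h and Eif3i and losing Eif1ax and Eif4a1, and 2 lower, beside 5.97% and 11.2% of all genes in that fit. With 4504s, 4601 and 4449 left out together they were 13 higher and 2 lower, beside 6.67% and 9.99% of all genes, and none passed an adjusted p of 0.05.

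**Figure D5:**
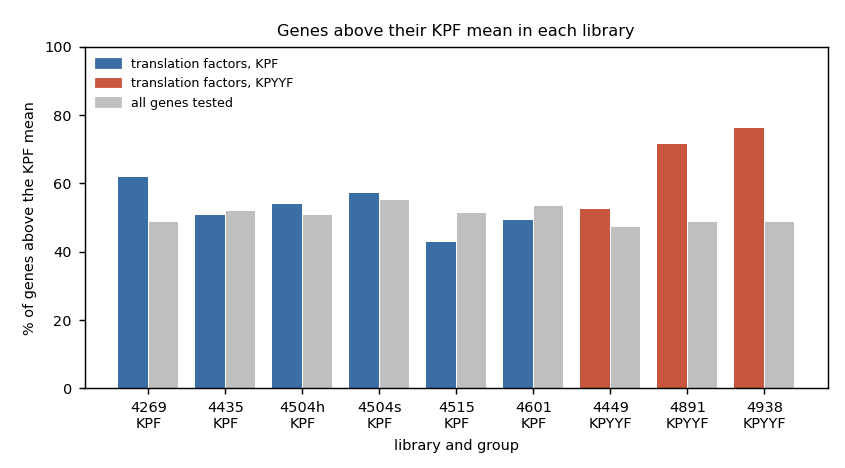
Share of genes above their KPF mean in each library (y axis, percent from 0 to 100); blue and red bars are the 63 translation factors in KPF and KPYYF and grey bars all 14105 genes tested. Libraries 4891 (71.4%) and 4938 (76.2%) exceed the others, and 4449 (52.4%) lies among the KPF libraries.

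Genes that act around these factors were read from lists chosen with earlier results known. Of all genes tested, 46.7% had log2 fold changes above 0. At an unadjusted p under 0.05, 6.10% were higher and 10.0% lower (edgeR). Of 24 genes of mTOR and MNK signalling, 10 were above 0 and none had an unadjusted p under 0.05 (median -0.05). The genes nearest that threshold lay on both sides of 0. Mtor, the kinase that releases eIF4E from 4E-BP, read 29.8 to 49.96 CPM in KPF and 43.8, 74.0 and 62.0 CPM in KPYYF (log2 fold change 0.67, unadjusted p = 0.0529, adjusted p = 0.318, edgeR). Larp1 was at 0.64 (unadjusted p = 0.0522, adjusted p = 0.316, edgeR) and Mknk2 at -0.69 (unadjusted p = 0.064, adjusted p = 0.348, edgeR). Sesn1, an inhibitor of mTORC1, had the highest fold change at 1.09 and Sesn2 the lowest at -0.87. Sesn1 was 43.0 CPM in 4449 and 16.1 and 7.43 CPM in 4891 and 4938, and without 4449 its log2 fold change was 0.18.

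Of 17 genes of the integrated stress response, the programme that eIF2 phosphorylation starts, with its targets, eIF2 phosphatase subunits and GCN2 regulators, 1 passed an adjusted p of 0.05. That gene was Psat1, an enzyme of serine synthesis, at 34.9 to 72.8 CPM in KPF and 85.1, 138.8 and 221.9 CPM in KPYYF (log2 fold change 1.61, SE 0.34, adjusted p = 0.0422, edgeR). The call was lost in 8 of the 9 fits that left out 1 library, all but that without 4449, with adjusted p from 0.0236 to 0.193 over the 9 (edgeR). It was also lost when 4504h and 4504s were summed into 1 sample and among the libraries with at least 1000 Xist reads. Slc7a11, the cystine importer, lay the other way, at 6.02 to 119.4 CPM and 0.592, 8.51 and 3.06 CPM (log2 fold change -3.61, adjusted p = 0.116, edgeR). The list as a whole had 9 of 17 above 0 and a median of 0.07.

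Among 21 poly(A) binding, recycling, termination and hypusine genes, 15 were above 0. At an unadjusted p under 0.05 (edgeR) there were 3, all higher, beside 6.10% of all genes. They were Abce1, which splits ribosomes after termination (log2 fold change 0.86, adjusted p = 0.192, edgeR), Gspt1, the release factor eRF3 (0.64, adjusted p = 0.272, edgeR), and Ddx3x, an RNA helicase (0.56, adjusted p = 0.277, edgeR). In this list the highest fold change was 1.08 for Igf2bp1, an mRNA-binding protein, and the lowest -1.79 for Mcts2.

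Of 22 cytosolic aminoacyl-tRNA synthetase genes, 17 were above 0 (median 0.30), with Dars, which charges tRNA with aspartate, the highest at 0.65. Wars, the tryptophanyl-tRNA synthetase, stood apart from them at 71.1 to 209.1 CPM in KPF and 45.4, 27.7 and 29.3 CPM in KPYYF, without overlap (log2 fold change -1.92, SE 0.43, adjusted p = 0.0514, edgeR). The 11 mitochondrial translation factors had 7 above 0 and no unadjusted p under 0.05 (median 0.46), from -0.35 for Mtrf1, a mitochondrial release factor, to 1.08 for Mrrf, the ribosome recycling factor. Mrrf was 60.9 CPM in 4449 and 6.65 and 24.6 CPM in 4891 and 4938, and without 4449 its log2 fold change was 0.10. Leaving out 1 library moved the list's median to between 0.086 and 0.62.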

How the data were processed

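RNA of FACS-sorted GFP+ or Tm+ PDAC cells was made into 3′ tag libraries (Lexogen QuantSeq). The authors deposited raw read counts per Ensembl gene for each library; the submitters' processing notes name STAR, HTSeq and mm10, with versions and strand setting not given in the sources used here. HTSeq left alignments out of the counts where they were not unique. These made up 43.9 to 48.5% in the KPF libraries and 49.2, 51.9 and 53.4% in 4449, 4891 and 4938. The groups thus did not overlap in this share, and its part in the results was not tested. Reads on genes ran from 8116539 to 9635514 per library, so 3 reads were worth 0.291 to 0.436 CPM (counting error only).

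Symbols came from GENCODE M21 (47224 of 47643 matched). Genes with under 100 reads in all were left out and 14105 were fitted in edgeR 4.0.16 (TMM, robust quasi-likelihood test, two-sided, Benjamini-Hochberg over all genes, no covariate, R 4.3.3). The biological coefficient of variation was 0.825. CPM are scaled by TMM. Alternatives were DESeq2 1.42.0, limma-voom (limma 3.58.1), other normalizations and filters, 4504h and 4504s summed, libraries with at least 1000 Xist reads and each library left out. Checked on simulated data for this comparison (13531 genes), edgeR recovered 36% of 4-fold and 80% of 16-fold changes. The columns of counts bear no length correction. Different genes were compared only as ratios of reads within a library, which are not molar, or as summed CPM.

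Members were named where the unadjusted p was under 0.05, where they had the highest or lowest fold change of their role group, where they belonged to a paralog set, or where they failed the filter. The members and lists were chosen with earlier results of these data known. Eif1, Eif1a, Eif2b4, Eif3i and Eef1akmt1 were added after their values were seen, and Mtor, Larp1 and Mknk2 were named for their p-values. The p-values measure the spread between these libraries. A further allele that both groups share is not reported here.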

Additional observations from a re-analysis of the deposited data

Results flagged for a closer look

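Within the 6 KPF libraries, 1 library stood far from the other 5 for 3 of the 63 genes, by Dixon's criterion at 95%, which chance alone passes in about 1 of 20 groups. Eef2kmt, the methyltransferase of eEF2, was 41.9 CPM in 4601 against 28.6 to 32.9 CPM in the others. Eif2b4, the delta subunit of eIF2B, was 22.0 CPM in 4269 against 37.6 to 48.3 CPM. Eif3j2 was 2.55 CPM in 4435 against 31.5 to 59.5 CPM, the same library in which its near-identical partner Eif3j1 was the highest of the KPF libraries.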

How the results depend on the processing

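Over all alternatives, leaving libraries out included, no more than 3 of the translation factors passed an adjusted p of 0.05 in 1 direction, and the number above 0 stayed between 43 and 52 of those tested. DESeq2 called 3 members higher and 1 lower. In the other lists it called 2 stress response genes, 1 tRNA synthetase, 2 genes of the Myc list and 3 proliferation genes. On simulated data 30% of its calls were false, against 2.52% for edgeR. Those data were drawn with edgeR's own dispersion estimates and few changed genes, so these shares may differ in the real data. Without a filter on low counts, 1 synthetase, 1 gene of the Myc list and 3 proliferation genes passed. With limma-voom, the members lower at an unadjusted p under 0.05 and those lower by the study's rule were both 0. The stress response call was lost (0 genes) when 4504h and 4504s were summed, in the libraries with at least 1000 Xist reads, and in 8 of the 9 fits without 1 library (all but that without 4449). In the libraries with at least 1000 Xist reads the mTOR list's median was 0.20. An alternative chosen after seeing the data left out 4504s, 4601 and 4449 together. In it 13 members were higher and 2 lower at an unadjusted p under 0.05, beside 6.67% and 9.99% of all genes. By the study's rule 4 were higher and 2 lower, but the share of all genes by that rule was not taken in this fit. The members' median was 0.41. The medians of the mTOR, stress response and Myc lists were 0.091, -0.19 and 0.21, and 1 synthetase passed. The cause of these moves was not tested. In the simulation edgeR recovered 36% of 4-fold changes, a size that only Eif4e3 and Eif5a2 exceeded among the members.

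Leaving out 1 library at a time gave 1 to 3 members higher by the study's rule, 1 to 2 lower by it and 1 to 2 lower at an unadjusted p under 0.05. The share of all genes by the study's rule was not taken in these fits. That at an unadjusted p under 0.05 was taken only without 4449 (11.2% lower). The medians ranged from -0.24 to 0.11 for the mTOR list, -0.16 to 0.21 for the stress response list (0 to 2 genes called), 0.096 to 0.43 for the synthetases (0 to 1 called), 0.086 to 0.62 for the mitochondrial factors and 0.11 to 0.56 for the Myc list. The log2 fold changes below changed sign. With all libraries those of Eef1akmt1, Eef1akmt3, Eif3j2 and Sesn2 were 0.80, 0.87, 0.81 and -0.87, not near 0. With limma-voom they were -3.77 for Eef1akmt3, 0.30 for Eef2k, -0.13 for Eif2b3, -0.26 for Eif3j2, 0.068 for Eif3l, 0.081 for Eif4g1 and 0.088 for Eif6. Upper quartile normalization gave 0.017 for Eef2k. Summing 4504h and 4504s gave -0.052 for Eif2ak4. The libraries with at least 1000 Xist reads gave 0.35 for Eef2k, 0.12 for Eif4g3 and 0.076 for Mtrf1. Without 4504s, 4601 and 4449 together the values were -0.64 for Eef1akmt1, 0.088 for Eef2k, -0.032 for Eef2kmt, -0.38 for Eif3j2, 0.12 for Eif3l, -0.46 for Eif4ebp2, 0.085 for Eif4g3 and 0.15 for Sesn2. With 1 library left out, the log2 fold change ran from -0.50 to 1.18 for Eef1akmt1, -7.44 to 1.45 for Eef1akmt3, -0.053 to 0.32 for Eef1b2, -0.023 to 0.53 for Eef2, -0.29 to 0.24 for Eef2k, -0.17 to 0.48 for Eef2kmt, -0.41 to 0.16 for Eif2a, -0.15 to 0.29 for Eif2ak1, -0.14 to 0.23 for Eif2ak4, -0.58 to 0.63 for Eif2b3, -0.55 to 1.35 for Eif3j2, -0.34 to 0.20 for Eif3l, -0.10 to 0.34 for Eif4ebp2, -0.083 to 0.19 for Eif5b, -0.33 to 0.13 for Eif6 and -0.81 to 0.052 for Mtrf1. None of these genes passed an adjusted p of 0.05 in any of these fits.

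Of the 8 members with an unadjusted p under 0.05, Eif1ad, Eif2b1, Eif3j1 and Eif5a kept it in all 18 alternatives. Eif4e3 lost it with limma-voom, Eif4e without library 4891 and among the libraries with at least 1000 Xist reads, Eif4a1 without 4449 (alone or with the other 2 libraries), and Eif1ax without 4449 or 4938, without those 3 libraries and among the libraries with at least 1000 Xist reads. No paired analysis was possible because the replicate numbers were given in accession order and no mouse is shared between the groups.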
